A study of Mus musculus with 10 samples.

Results

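Foxp3 and 5 genes that mark regulatory T (Treg) cells (Nrp1, Lrrc32, Izumo1r, Gpr83 and Capg) were followed across open chromatin in Treg cells with and without Fntb. Their regions were those of the count table that overlapped the GRCm38 protein-coding span of a gene, or that had it as the nearest span within 100 kb. There were 88 such regions among 77076 in the table, with 48 at Nrp1, 14 at Lrrc32, 11 at Izumo1r, 8 at Gpr83, 4 at Capg and 3 at Foxp3. All 88 passed the filter on low counts, and 35 of them lay inside a gene span. Assignment to a gene here is by position alone.

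The assay was ATAC-seq, which reads open chromatin through the adapters that a transposase leaves there. Mouse Treg cells were sorted straight from mixed bone marrow chimeras, hosts rebuilt with marrow of more than 1 donor, and the tissue was spleen and lymph nodes. There were 2 libraries of FntbKO effector Treg (eTreg) cells, 2 of FntbKO central Treg (cTreg) cells, 3 of WT eTreg cells and 3 of WT cTreg cells. The product of Fntb is a subunit of the enzyme that farnesylates RAS proteins and nuclear lamins. The labels name no Cre driver, floxed allele, age, sort gate or batch, and they do not say which libraries came from the same chimera, so p-values measure only the spread between these libraries.

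Foxp3 is the transcription factor that specifies Treg cells, and its introns hold conserved noncoding elements that start and hold its expression. Treg cells that leave the resting, lymphoid central state become effector cells with stronger suppressive and tissue programs. Nrp1 (neuropilin-1) is a semaphorin and VEGF co-receptor that in mice marks many thymus-derived Treg cells. Lrrc32 encodes GARP, which holds latent TGF-β on the Treg cell surface. Izumo1r encodes folate receptor 4, Gpr83 a G protein-coupled receptor with high expression in Treg cells, and Capg an actin filament capping protein.

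Total counts ran from 5058328 to 15328775 per library. On the first principal component (34.5% of variance), FntbKO eTreg lay at -0.8 and 22.4, FntbKO cTreg at -114.4 and -54.5, WT eTreg between 49.8 and 96.9, and WT cTreg between -42.1 and 9.9. WT cTreg 2 (9.9) lay among the FntbKO eTreg libraries on this axis and FntbKO cTreg 1 (-114.4) lay farthest out, so results are also given without both. As a check of the genotype labels, the region at the start of Fntb had 7.47 to 11.6 CPM in FntbKO eTreg and 11.2 to 13.1 in FntbKO cTreg cells, against 29.4 to 30.3 in WT eTreg and 29.2 to 36.8 in WT cTreg cells. CPM is the count of a region scaled to the size of its library, here with edgeR's TMM factors. Foxp3, the defining gene of the labelled cell type, had accessible regions in every library. A change is called at an edgeR quasi-likelihood adjusted p (Benjamini-Hochberg over all 76216 tested regions) under 0.05. Leaving out 1 FntbKO library leaves 1 in its group. Without FntbKO cTreg 1, FntbKO eTreg 1 or FntbKO eTreg 2, fewer regions were called over the whole table in the comparisons averaged over genotypes or subsets.

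The summed accessibility of the genes is given first. Gpr83 and Lrrc32 were less accessible in eTreg than in cTreg cells, and Gpr83 and Izumo1r were more accessible in FntbKO than in WT cells, while Foxp3, Nrp1 and Capg passed in no comparison. For these sums, counts were added over the regions of each of 15895 tested genes and tested in the same way. In the mean of both genotypes, 2 of the 6 genes were called for eTreg over cTreg, both lower, against 10.5% of all genes (5.03% higher, 5.42% lower). In the mean of both subsets, 2 of the 6 were called for FntbKO over WT, both higher, against 12.0% of all genes (6.23% higher, 5.78% lower). Within WT 2 genes were called as lower in eTreg, against 3.17% of all genes (1.38% higher, 1.79% lower). Within FntbKO 1 gene was called as lower in eTreg, against 1.86% of all genes (1.11% higher, 0.749% lower). Between the genotypes 0 of the 6 genes were called within cTreg, against 2.30% of all genes (0.868% higher, 1.43% lower), and 0 within eTreg, against 0.736% (0.384% higher, 0.352% lower). None of the 6 was called for the interaction of genotype and subset (0% of all genes). The averaged comparisons use the same libraries as those within a genotype or subset and are not separate evidence.

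Summed over its 3 regions, Foxp3 had 38.2 and 40.6 CPM in FntbKO eTreg, 33.9 and 41.5 in FntbKO cTreg, 33.5, 35.3 and 28.5 in WT eTreg and 41.4, 29.8 and 33.9 in WT cTreg cells. FntbKO eTreg lay highest by mean and WT eTreg lowest, and every pair of neighbours in the order of the 4 means overlapped. The FntbKO eTreg libraries lay above the WT eTreg libraries, with a log2 fold of 0.27 that did not pass (SE 0.14, edgeR adjusted p = 0.358). The log2 fold of eTreg over cTreg was -0.03 (SE 0.10, 95% interval -0.27 to 0.22, edgeR adjusted p = 0.906) in the mean of both genotypes. That of FntbKO over WT was 0.19 (SE 0.10, interval -0.05 to 0.44, edgeR adjusted p = 0.203) in the mean of both subsets. These intervals use the 6 residual degrees of freedom of the fit.

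Gpr83, summed over 8 regions, had 80.0 and 60.2 CPM in FntbKO eTreg, against 108.2 and 100.2 in FntbKO cTreg cells. It had 52.1, 63.3 and 52.9 CPM in WT eTreg, against 93.5, 73.9 and 81.1 in WT cTreg cells. Within each genotype the eTreg and cTreg libraries did not overlap. The means were 70.1 ± 14.0 CPM in FntbKO eTreg and 104.2 ± 5.66 in FntbKO cTreg (SD, n = 2 each), and 56.1 ± 6.24 in WT eTreg and 82.8 ± 9.94 in WT cTreg (SD, n = 3 each). Gpr83 fell in eTreg cells by a log2 fold of -0.57 in the mean of both genotypes (SE 0.09, edgeR adjusted p = 0.000434), and this call held when any single library was left out. The fall was -0.56 in WT (SE 0.11, adjusted p = 0.011) and -0.59 in FntbKO (SE 0.13, adjusted p = 0.0281). The WT call was lost without WT eTreg 1 (adjusted p = 0.0588), WT cTreg 3 (0.0633) or WT eTreg 3 (0.0746), and with the 2 regions inside the span alone (0.0592). The FntbKO call was lost without FntbKO cTreg 1 or FntbKO eTreg 2, each of which leaves 1 library in its group. Fewer regions were then called over the whole table for this comparison as well.

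Lrrc32, summed over 14 regions, had 95.8 and 117.2 CPM in FntbKO eTreg, against 119.9 and 137.7 in FntbKO cTreg cells. It had 108.1, 115.5 and 120.9 CPM in WT eTreg, against 143.7, 142.7 and 145.2 in WT cTreg cells. The WT cTreg libraries were the 3 highest of the 10. Lrrc32 fell in eTreg cells by a log2 fold of -0.30 in the mean of both genotypes (SE 0.06, edgeR adjusted p = 0.00493), a call kept without any single library. It was lost when regions were limited to the span (-0.20, adjusted p = 0.135) or to 10 kb (-0.22, adjusted p = 0.0593). In WT alone the fall was -0.33 (SE 0.08, adjusted p = 0.0307), a call that ended when any 1 of 5 WT libraries was left out (adjusted p 0.0647 to 0.144), and with regions within 10 kb alone (0.0661). In FntbKO the log2 fold was -0.27 (SE 0.10, adjusted p = 0.189).

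Izumo1r, summed over 11 regions, had 171.5 and 168.1 CPM in FntbKO eTreg and 178.5 and 182.6 in FntbKO cTreg cells. It had 153.0, 143.7 and 148.7 CPM in WT eTreg and 168.8, 119.2 and 158.4 in WT cTreg cells. WT cTreg 2, one of the libraries that stood apart, was the lowest. Izumo1r rose in FntbKO by a log2 fold of 0.23 in the mean of both subsets (SE 0.07, edgeR adjusted p = 0.0406). This call was lost without any 1 of 7 libraries (adjusted p 0.0571 to 0.122) and with scaling by total counts (adjusted p = 0.0578). Gpr83, whose span lies 15.0 kb from that of Izumo1r, rose in FntbKO by 0.31 in the same comparison (SE 0.09, adjusted p = 0.0251). That call was lost without any 1 of 6 libraries (adjusted p 0.0504 to 0.151). Without WT cTreg 2 and FntbKO cTreg 1 together neither was called, with log2 folds of 0.18 for Izumo1r (adjusted p = 0.0834) and 0.25 for Gpr83 (adjusted p = 0.136).

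Nrp1, summed over 48 regions, had 433.4 and 452.1 CPM in FntbKO eTreg and 452.5 and 475.3 in FntbKO cTreg cells. It had 438.6, 526.3 and 495.5 CPM in WT eTreg and 475.1, 595.8 and 541.2 in WT cTreg cells. WT cTreg 2 was the highest library. The log2 fold of FntbKO over WT was -0.17 in the mean of both subsets (SE 0.06, edgeR adjusted p = 0.0671). It passed without WT cTreg 1 or without WT eTreg 1, with 0.0115 as the lower of these adjusted p-values. The log2 fold of eTreg over cTreg was -0.10 in the mean of both genotypes (SE 0.06, adjusted p = 0.302). Capg, summed over 4 regions, had 161.6 and 158.6 CPM in FntbKO eTreg, 160.4 and 151.9 in FntbKO cTreg, 135.8, 141.5 and 139.3 in WT eTreg and 150.8, 138.8 and 143.6 in WT cTreg cells. All FntbKO libraries lay above all WT libraries, but the log2 fold of 0.16 did not pass (SE 0.05, adjusted p = 0.0543). Without WT cTreg 1 it did pass (adjusted p = 0.0409). The same omission brought FntbKO over WT within cTreg past the threshold for the sums of Nrp1 (adjusted p = 0.0441, against 0.189 with all libraries) and Izumo1r (0.0439, against 0.149).

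**Figure D1:**
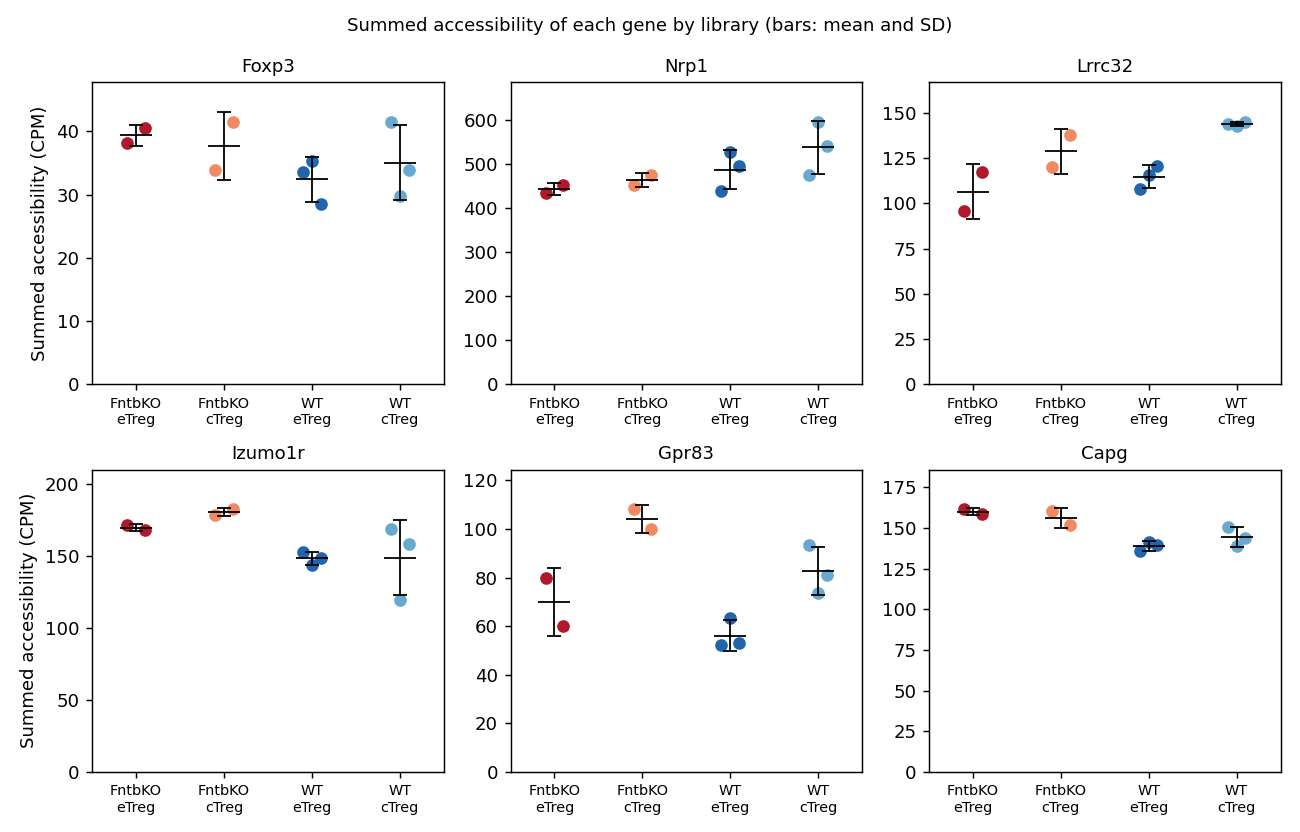
Summed accessibility in CPM (y axis) of each of the 6 genes in every library (points), by group (x axis), with the mean and SD as bars. The Gpr83 libraries of eTreg cells lie below those of cTreg cells within each genotype, and the Foxp3 groups next to each other in the order of their means overlap.

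Per length of region, Capg had the highest level with 64.1 CPM per kb. Izumo1r followed with 39.6 CPM per kb, Gpr83 with 33.9, Foxp3 with 29.5, Lrrc32 with 26.3 and Nrp1 with 25.9. The median level of the 88 regions was 7.98 CPM, against 5.01 CPM over all regions of the table.

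Single regions were then tested, and Nrp1 had calls in both directions within a comparison. In the mean of both genotypes, 13 of the 88 regions were called for eTreg over cTreg (14.8%, against 11.0% of all tested regions). Of these 2 were higher in eTreg (6.14% of all) and 11 lower (4.84% of all), with 1 higher and 6 lower at Nrp1, 3 lower at Gpr83, 2 lower at Lrrc32 and 1 higher at Capg. The median log2 fold of the 88 was -0.14, against -0.01 over all tested regions. In WT alone 4 of 88 were called (4.55%, against 3.44% of all), with 1 higher (1.83% of all) and 3 lower (1.61% of all). In FntbKO alone 1 of 88 was called, as lower (1.14%, against 1.35% of all in either direction, 0.964% higher and 0.390% lower). Between the genotypes 7 of 88 were called in the mean of both subsets (7.95%, against 3.99% of all), with 3 higher (1.82% of all) and 4 lower (2.17% of all). There was 1 call of 88 within cTreg, as lower (1.14%, against 0.568% of all, 0.190% higher and 0.378% lower). Within eTreg there were 0 calls of 88 (0.353% of all, 0.181% higher and 0.172% lower), with 17 regions at an unadjusted p under 0.05, against 9330 of all 76216 tested regions, and DESeq2 and limma-voom also made 0 calls. The median log2 fold of the 88 was -0.04 in the mean of both subsets, against -0.0041 over all tested regions. Without the libraries WT cTreg 2 and FntbKO cTreg 1, some of the 13 subset calls in these means were kept, and the 7 genotype calls were lost. That fit leaves 1 FntbKO cTreg library, and fewer regions were then called over the whole table in both means as well. The subset calls kept were at Nrp1 (128464092, 128473817 and 128488038), Gpr83 (14857306 and 14859908) and Lrrc32 (98513213), by their low coordinates.

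**Figure D2:**
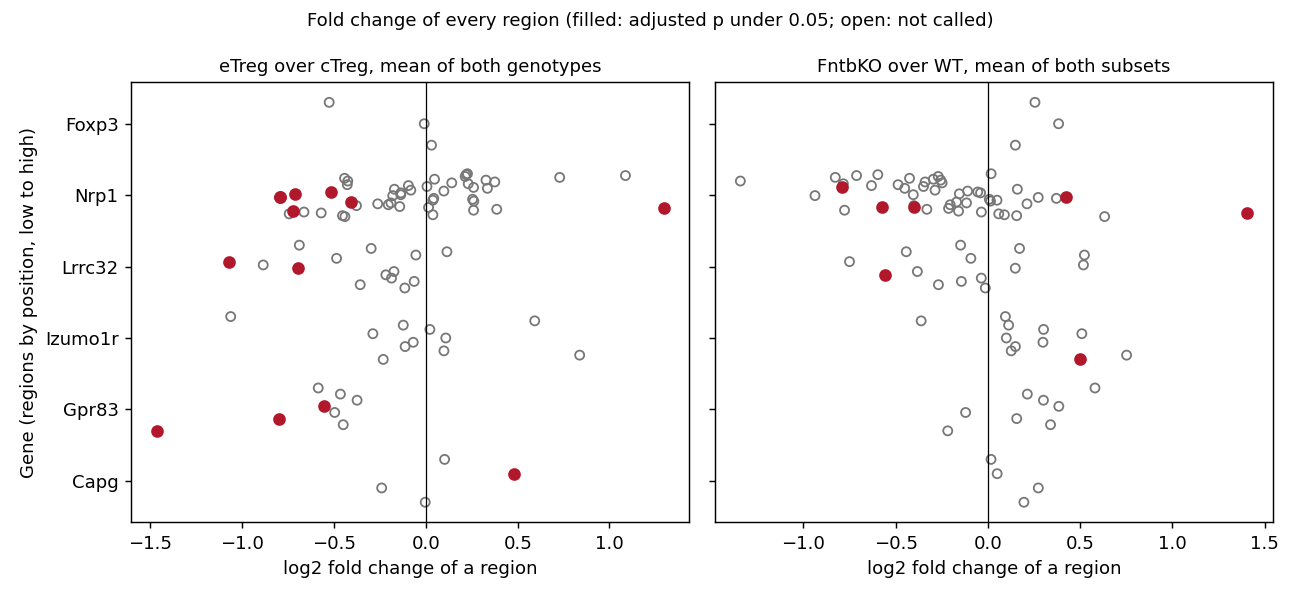
The log2 fold change of every region (x axis) by gene (y axis), for eTreg over cTreg in the mean of both genotypes (left) and FntbKO over WT in the mean of both subsets (right). Filled points are called at an adjusted p under 0.05, 13 on the left and 7 on the right, and all 8 Gpr83 regions lie left of zero in the left panel.

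At Foxp3 (gene 20371, chromosome X, 7579676 to 7595243) none of the 3 regions was called in any comparison. The most accessible (7583812 to 7584418) is centred 4.4 kb after the first listed start, where the literature places the intronic element CNS2, which keeps Foxp3 on in dividing Treg cells. It had 31.0 and 34.7 CPM in FntbKO eTreg, 29.2 and 35.1 in FntbKO cTreg, 29.9, 31.1 and 28.3 in WT eTreg and 33.9, 26.0 and 27.6 in WT cTreg cells. The groups overlapped, with log2 folds of 0.15 for FntbKO over WT in the mean of both subsets (SE 0.10, edgeR adjusted p = 0.436) and also 0.15 within cTreg (SE 0.14, adjusted p = 0.715). A region centred 7.0 kb after the start (7586529 to 7586780) lies at the place described for CNS3, an element used to switch Foxp3 on. It had 7.01 and 5.02 CPM in FntbKO eTreg and 5.06, 3.88 and 1.36 in WT eTreg cells, a log2 fold of 0.73 (SE 0.40, adjusted p = 0.474). WT eTreg 1 lay between the FntbKO eTreg libraries. Its log2 fold of eTreg over cTreg in FntbKO was 0.34 (SE 0.42, adjusted p = 0.764).

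The Foxp3 region with the lowest counts (7593355 to 7593757), near the far end of the span, had 0.964, 1.59 and 1.02 CPM in WT eTreg and 3.63, 1.03 and 3.17 in WT cTreg cells. WT cTreg 2 lay among the WT eTreg libraries. Its log2 fold of -1.12 in WT had an adjusted p of 0.207 (edgeR, SE 0.48), and the interaction of genotype and subset was 1.20 (SE 0.74, adjusted p = 0.9999). No region of the table overlapped either window of 250 bases before a listed Foxp3 start. In bulk libraries, fewer cells with an open region and a less open region in each cell cannot be told apart.

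Gpr83 (gene 14608, chromosome 9, 14859880 to 14870789) was less accessible in eTreg cells at its start and at 2 regions before it. The region over the gene start (14859908 to 14860357) had 42.5 and 29.4 CPM in FntbKO eTreg, against 58.6 and 51.5 in FntbKO cTreg cells. It had 27.5, 31.8 and 26.1 CPM in WT eTreg, against 48.1, 31.1 and 39.3 in WT cTreg cells. The groups separated in FntbKO, while in WT the cTreg 2 library (31.1) lay within the eTreg range. The region fell in eTreg by a log2 fold of -0.55 in the mean of both genotypes (SE 0.12, edgeR adjusted p = 0.00353), a call lost without FntbKO eTreg 2. Within a genotype it did not pass, with -0.64 in FntbKO (SE 0.18, adjusted p = 0.0672) and -0.47 in WT (SE 0.15, adjusted p = 0.0801). For the genotypes, FntbKO over WT, it had 0.38 in the mean of both subsets (SE 0.11, adjusted p = 0.0592) and 0.47 within cTreg (SE 0.16, adjusted p = 0.194).

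A region 2.3 kb before the Gpr83 span (14857306 to 14857590) had 8.21 and 4.33 CPM in FntbKO eTreg, against 13.0 and 11.3 in FntbKO cTreg cells. It had 5.30, 6.07 and 7.46 CPM in WT eTreg, against 11.2, 8.25 and 8.66 in WT cTreg cells. All 5 eTreg libraries lay below all 5 cTreg libraries. It fell by -0.80 in the mean of both genotypes (SE 0.20, adjusted p = 0.00899), also lost without FntbKO eTreg 2. A weakly covered region 11.0 kb before the span (14848654 to 14848854) fell by -1.47 (SE 0.44, adjusted p = 0.0318). It had 0.400 and 0.688 CPM in FntbKO eTreg against 2.46 and 1.88 in FntbKO cTreg, and 0.509 to 1.20 in WT eTreg against 1.40 to 2.41 in WT cTreg cells, and the call ended with any 1 of 5 libraries left out or with limma-voom. The other 5 Gpr83 regions, which were not called, had log2 folds below zero as well. The smallest p for FntbKO over WT within eTreg was at a region 5.8 kb beyond the span (14876623 to 14876866; 1.11, SE 0.47, adjusted p = 0.325), which also had the smallest for the interaction (1.06, SE 0.63, adjusted p = 0.9999).

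Regions over the starts of Gpr83 and Izumo1r and just before that of Nrp1 cover all or most of the promoter sequences listed by RefSeq for GRCm38.p6, of which the 250 bases before the start are shown, 5′ to 3′ on the strand of the gene. RefSeq promoter entries matched 5 of the 6 genes. These 3 windows, of the genes whose sums or promoter regions changed, are printed because an accessible region of the table lay over at least 245 of the 250 bases. Capitals mark matches, on either strand, to 8 motifs. The core promoter motif searched was the TATA box, TATAAA. For families active in T cells the letters were CCGGAAG for the ETS family, TGTGGT for the RUNX family, TTCNNNGAA for the STAT family, TGANTCA for the AP-1 family, TGTTTAC for the forkhead family, to which Foxp3 belongs, GGGCGG for the KLF and SP family, and TTTCCA for the NFAT family.
Gpr83, chr9:14859960-14860209, plus strand: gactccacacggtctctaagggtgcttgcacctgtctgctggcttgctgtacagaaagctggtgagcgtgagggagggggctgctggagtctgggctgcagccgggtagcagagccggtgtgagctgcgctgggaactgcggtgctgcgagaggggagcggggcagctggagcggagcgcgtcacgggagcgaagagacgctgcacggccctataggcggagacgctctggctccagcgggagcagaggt
Izumo1r, chr9:14903768-14904017, minus strand: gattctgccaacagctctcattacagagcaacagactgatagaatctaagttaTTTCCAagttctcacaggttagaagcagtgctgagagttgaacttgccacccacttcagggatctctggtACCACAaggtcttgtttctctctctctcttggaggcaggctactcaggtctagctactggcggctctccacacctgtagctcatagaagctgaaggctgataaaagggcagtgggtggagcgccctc
Nrp1, chr8:128358823-128359072, plus strand: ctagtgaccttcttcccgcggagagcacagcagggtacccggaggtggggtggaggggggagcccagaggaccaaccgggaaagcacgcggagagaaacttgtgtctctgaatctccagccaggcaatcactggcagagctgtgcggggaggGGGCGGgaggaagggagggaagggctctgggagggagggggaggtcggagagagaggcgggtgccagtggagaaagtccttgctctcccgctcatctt
The Gpr83 window held none of the 8 letter strings. Izumo1r held a RUNX match in reverse, 127 to 122 bases before the start, and an NFAT match, 197 to 192 bases before it. Nrp1 held a KLF/SP match, 98 to 93 bases before the start. Of 32851 promoter windows of this length, 14.0% held the RUNX string, 18.6% the NFAT string and 32.7% the KLF/SP string. The windows had a GC content of 66.8% at Gpr83, 50.0% at Izumo1r and 64.4% at Nrp1. No match overlapped another, and a match is a description of letters and not a shown binding site.

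Izumo1r (gene 64931, chromosome 9, 14885814 to 14903951) had 1 region that rose without Fntb. It lies between the Gpr83 and Izumo1r spans, 0.6 kb from the Izumo1r 3′ end (14884600 to 14885175). It had 18.6 and 16.1 CPM in FntbKO eTreg, against 14.3, 12.0 and 13.9 in WT eTreg cells. It had 22.0 and 22.4 CPM in FntbKO cTreg, against 16.2, 11.0 and 15.4 in WT cTreg cells. Within each subset the genotypes did not overlap. The log2 fold of FntbKO over WT was 0.50 in the mean of both subsets (SE 0.14, edgeR adjusted p = 0.0341), a call that ended with any 1 of 7 libraries left out, and 0.63 within cTreg (SE 0.19, adjusted p = 0.125). Its log2 fold of eTreg over cTreg in FntbKO was -0.36 (SE 0.21, adjusted p = 0.42).

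The region over the Izumo1r start (14903710 to 14904342) had 37.4 and 34.0 CPM in FntbKO eTreg, 36.1 and 35.6 in FntbKO cTreg, 29.9, 26.0 and 27.5 in WT eTreg and 36.4, 22.2 and 31.8 in WT cTreg cells. It was not called in any comparison. A weakly covered region inside the span (14892237 to 14892545) rose in eTreg cells in WT, with 2.65, 4.08 and 2.20 CPM in WT eTreg against 1.68, 0.688 and 0.422 in WT cTreg cells (log2 fold 1.72, SE 0.49, adjusted p = 0.0483). In FntbKO it had 2.00 and 3.34 CPM in eTreg and 2.46 and 3.18 in cTreg cells. The call was lost without any 1 of 8 libraries and with total-count scaling, DESeq2 or limma-voom. In the mean of both genotypes it had 0.84 (SE 0.36, adjusted p = 0.136), and the interaction was -1.77 (SE 0.72, adjusted p = 0.9999). A region 16.7 kb beyond the start (14920641 to 14920893) had the smallest p of the gene within eTreg, with 4.41 and 5.21 CPM in FntbKO against 2.17, 2.99 and 1.87 in WT cells (1.02, SE 0.37, adjusted p = 0.24).

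Lrrc32 (gene 434215, chromosome 7, 98489305 to 98501831) had 3 called regions, and each call was a fall. A region 11.4 kb beyond the high-coordinate end of the span (98513213 to 98513651) had 15.6 and 15.7 CPM in FntbKO eTreg, against 24.1 and 23.1 in FntbKO cTreg cells. It had 12.5, 13.3 and 13.4 CPM in WT eTreg, against 26.7, 19.8 and 22.3 in WT cTreg cells. All 5 eTreg libraries lay below all 5 cTreg libraries. It fell by a log2 fold of -0.70 in the mean of both genotypes (SE 0.12, edgeR adjusted p = 0.00074) and by -0.81 in WT (SE 0.16, adjusted p = 0.00578), and both calls held without any single library and without WT cTreg 2 and FntbKO cTreg 1 together.

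A region inside the Lrrc32 span (98491704 to 98492138) was lower without Fntb in cTreg cells. It had 12.4 and 17.4 CPM in FntbKO cTreg, against 28.6, 27.9 and 29.5 in WT cTreg cells, groups that did not overlap. The log2 fold was -0.92 (SE 0.17, edgeR adjusted p = 0.00865), the single call of the 88 regions within cTreg, and it did not hold with FntbKO cTreg 1 left out. That omission leaves 1 FntbKO cTreg library, and fewer regions were then called within cTreg over the whole table as well. The eTreg cells had 18.2 and 15.5 CPM in FntbKO, against 20.0, 17.5 and 20.4 in WT. In the mean of both subsets FntbKO over WT was -0.56 (SE 0.12, adjusted p = 0.00947), lost without FntbKO cTreg 1 or FntbKO eTreg 2. The region also fell in eTreg within WT, by -0.58 (SE 0.15, adjusted p = 0.0333), a call that ended with any 1 of 5 WT libraries left out. Its interaction of genotype and subset was 0.72 (SE 0.25, unadjusted p = 0.00696, edgeR adjusted p = 0.9999). A weakly covered region 22.1 kb beyond the span (98523924 to 98524311) had 0.801 and 0.984 CPM in FntbKO eTreg against 4.37 and 2.72 in FntbKO cTreg, and 2.89, 2.99 and 2.37 in WT eTreg against 4.19, 2.75 and 2.85 in WT cTreg cells. It fell in eTreg by -1.07 in the mean of both genotypes (SE 0.32, adjusted p = 0.0306), a call that ended with any 1 of 5 libraries left out, with DESeq2 or with limma-voom. It had -1.91 in FntbKO (SE 0.52, adjusted p = 0.0581), and for FntbKO over WT within eTreg -1.59 (SE 0.50, adjusted p = 0.168).

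Nrp1 (gene 18186, chromosome 8, 128358591 to 128505476) had 18 regions inside a span of 146.9 kb, 11 before it and 19 beyond it. The strongest subset change of the 88 regions by adjusted p was a region centred 115.0 kb after the listed start (128473817 to 128474273). It had 35.2 and 32.0 CPM in FntbKO eTreg, against 62.2 and 48.2 in FntbKO cTreg cells. It had 21.2, 27.0 and 22.2 CPM in WT eTreg, against 40.7, 40.9 and 47.4 in WT cTreg cells. All 5 eTreg libraries lay below all 5 cTreg libraries. It fell by a log2 fold of -0.79 in the mean of both genotypes (SE 0.10, edgeR adjusted p = 3.01e-05), -0.87 in WT (SE 0.13, adjusted p = 0.000756) and -0.71 in FntbKO (SE 0.15, adjusted p = 0.0165). The first 2 calls held without any single library, and the FntbKO call was lost without FntbKO cTreg 1, FntbKO eTreg 1 or FntbKO eTreg 2. Each of these 3 omissions leaves 1 library in its group, and fewer regions were then called over the whole table for the subsets in FntbKO.

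The same Nrp1 region was higher in FntbKO than in WT cells, by 0.42 in the mean of both subsets (SE 0.10, adjusted p = 0.0135), lost without FntbKO cTreg 1 or FntbKO eTreg 1. Of the 5 other Nrp1 regions that fell in eTreg in the mean of both genotypes, 4 lay inside the span. They were centred 32.3, 105.2, 129.2 and 132.8 kb after the start, with log2 folds of -0.41, -0.80, -0.71 and -0.52. At 132.8 kb (128491712 to 128492070) there were 11.6 and 13.2 CPM in FntbKO eTreg against 19.4 and 16.7 in FntbKO cTreg, and 12.5, 12.7 and 13.9 in WT eTreg against 16.5, 20.6 and 18.8 in WT cTreg cells (SE 0.13, adjusted p = 0.0129). The fifth (128320556 to 128321163) lay 37.4 kb before the span (-0.72, SE 0.23, adjusted p = 0.0403). These 5 calls were each lost without some single libraries, between 2 and 7 of the 10.

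The single Nrp1 region that rose in eTreg (128352877 to 128353112) lay 5.5 kb before the span. It had 3.40 and 2.85 CPM in FntbKO eTreg against 0.957 and 1.56 in FntbKO cTreg, and 4.46, 2.79 and 4.07 in WT eTreg against 1.26, 0.688 and 2.22 in WT cTreg cells. All 5 eTreg libraries lay above all 5 cTreg libraries, with a log2 fold of 1.30 in the mean of both genotypes (SE 0.34, edgeR adjusted p = 0.0153), lost without FntbKO cTreg 1 or FntbKO eTreg 2. The most accessible region of the gene (128549655 to 128550529), 44.2 kb beyond the span with a mean of 75.5 CPM, was not called in any comparison.

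At the Nrp1 promoter the genotypes differed. A region over the low end of the span and most of the promoter window (128357876 to 128359067), which ends just before the listed start, had 28.8 and 30.4 CPM in FntbKO eTreg, against 41.3, 37.7 and 46.3 in WT eTreg cells. It had 33.9 and 35.5 CPM in FntbKO cTreg, against 36.8, 49.5 and 43.8 in WT cTreg cells. All 4 FntbKO libraries lay below all 6 WT libraries. It fell in FntbKO by a log2 fold of -0.40 in the mean of both subsets (SE 0.10, edgeR adjusted p = 0.0161), lost without WT eTreg 3, FntbKO cTreg 1, FntbKO eTreg 1 or FntbKO eTreg 2. Within eTreg it had -0.49 (SE 0.14, adjusted p = 0.121). The neighbouring region 1.0 kb before the span (128357104 to 128357545) had 8.81 and 7.77 CPM in FntbKO eTreg against 12.4, 12.3 and 15.1 in WT eTreg, and 8.20 and 9.27 in FntbKO cTreg against 13.0, 13.1 and 10.5 in WT cTreg cells. It fell by -0.57 (SE 0.16, adjusted p = 0.0404). The call ended with any 1 of 8 libraries left out, or with the replicate number added as a block (adjusted p = 0.0519).

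Beyond the far end of Nrp1, 12.1 kb from the span, a region (128517587 to 128518110) had 8.01 and 13.2 CPM in FntbKO eTreg against 22.2, 16.5 and 16.4 in WT eTreg, and 7.24 and 10.2 in FntbKO cTreg against 15.3, 17.5 and 14.7 in WT cTreg cells. The genotypes did not overlap. It fell in FntbKO by -0.79 in the mean of both subsets (SE 0.16, edgeR adjusted p = 0.00561), lost without FntbKO eTreg 1 (adjusted p = 0.0524), and had -0.83 within cTreg (SE 0.23, adjusted p = 0.0962). A weakly covered region 52.8 kb before the span (128305510 to 128305792) rose in FntbKO by 1.41 (SE 0.41, adjusted p = 0.0486), with 2.00 and 1.97 CPM in FntbKO eTreg against 0.597 to 0.964 in WT eTreg, and 3.28 and 2.72 in FntbKO cTreg against 0.558 to 1.90 in WT cTreg cells. That call ended with any 1 of 9 libraries left out, or with total-count scaling, DESeq2, limma-voom or halved counts in place of the main fit. Of the 48 Nrp1 regions, 34 had a log2 fold below zero for FntbKO over WT in the mean of both subsets, with a median of -0.23. The smallest p for the interaction was at a region 28.8 kb beyond the span (128534311 to 128534719; 0.65, SE 0.26, adjusted p = 0.9999).

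**Figure D3:**
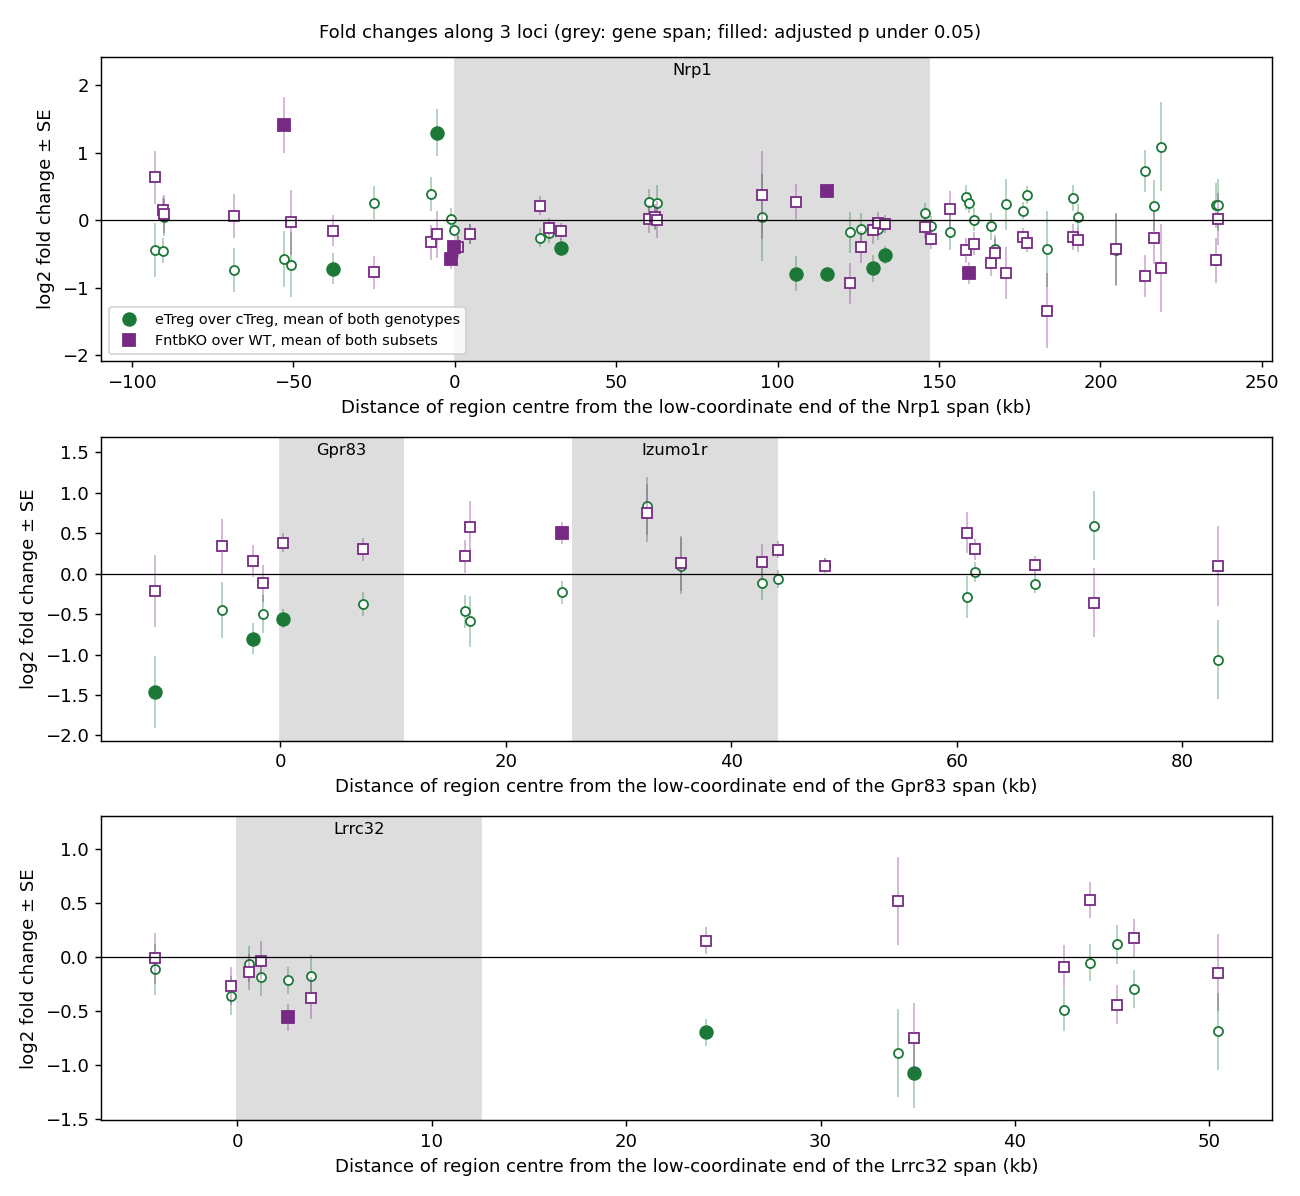
The log2 fold change with its SE (y axis) against the distance of each region from the low-coordinate end of the gene span (x axis, kb), for eTreg over cTreg (circles) and FntbKO over WT (squares); filled symbols are called. At Nrp1 the falls in eTreg lie mostly inside the grey span and the falls in FntbKO at its low end and beyond its far end, and at Gpr83 the eTreg circles are all below zero.

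Capg (gene 12332, chromosome 6, 72538282 to 72562983) had 4 regions, all inside its span. A region centred 1.3 kb after the listed start (72550759 to 72551075) had 11.2 and 12.3 CPM in FntbKO eTreg against 9.02 and 10.1 in FntbKO cTreg, and 12.1, 12.4 and 14.6 in WT eTreg against 8.51, 8.60 and 7.50 in WT cTreg cells. All 5 eTreg libraries lay above all 5 cTreg libraries. It rose in eTreg by a log2 fold of 0.48 in the mean of both genotypes (SE 0.16, edgeR adjusted p = 0.0448). The call ended with any 1 of 9 libraries left out, or with DESeq2 in place of edgeR. The region had 0.67 in WT (SE 0.20, adjusted p = 0.0618) and 0.30 in FntbKO (SE 0.24, adjusted p = 0.606), with an interaction of -0.37 (SE 0.31, adjusted p = 0.9999).

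The region at the low end of the Capg span (72538624 to 72539113) was the most accessible of the gene, with 73.9 and 73.2 CPM in FntbKO eTreg, 74.6 and 68.7 in FntbKO cTreg, 62.6, 62.9 and 61.2 in WT eTreg and 70.9, 58.5 and 63.5 in WT cTreg cells. Its log2 fold of FntbKO over WT within cTreg was 0.15 (SE 0.11, edgeR adjusted p = 0.589). The next region (72544240 to 72545126) had 0.27 for FntbKO over WT in the mean of both subsets (SE 0.10, adjusted p = 0.112) and 0.38 within eTreg (SE 0.14, adjusted p = 0.252).

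**Figure D4:**
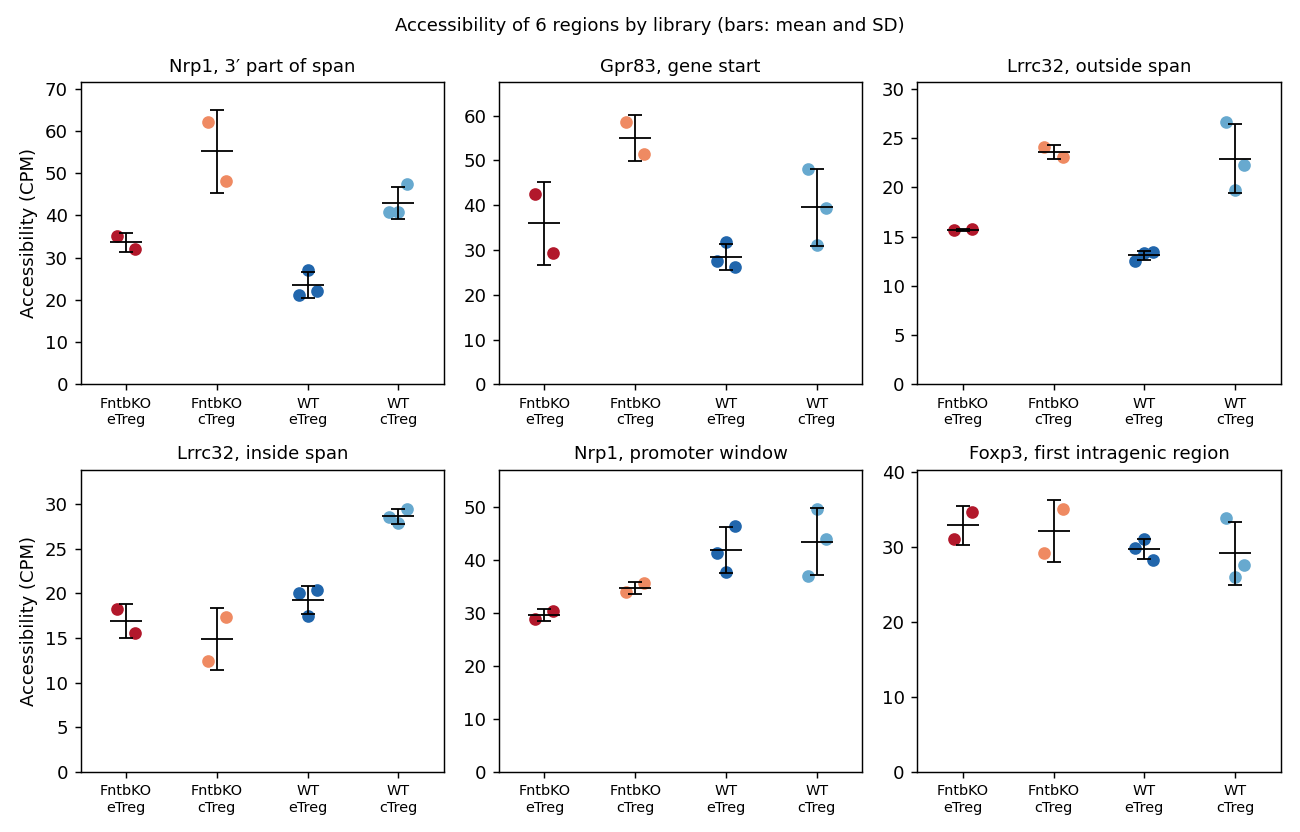
Accessibility in CPM (y axis) of 6 regions in every library (points), by group (x axis), with mean and SD as bars. The Nrp1 region inside the span and the Lrrc32 region outside it are lower in every eTreg than in every cTreg library, the Nrp1 promoter region is lower in every FntbKO than in every WT library, and the Foxp3 groups overlap.

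The subset change of the 88 regions was compared between the genotypes as an interaction. None was called with edgeR (0% of all tested regions), DESeq2 or limma-voom. At an unadjusted p under 0.05 there were 9 of 88 with edgeR, against 3093 (4.06%) of all tested regions. DESeq2 gave 7 of 88, against 2133 (2.80%) of all, and limma-voom 11 of 88, against 3280 (4.30%) of all. For the sums, the interaction was 0.16 at Foxp3 (SE 0.20, 95% interval -0.32 to 0.65) and 0.07 at Nrp1 (SE 0.12, interval -0.22 to 0.37). A p that misses the threshold does not show that the subset change was alike in both genotypes.

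Other genes of these programs were counted from lists. A gene with many regions has more chances of a call. The shares given beside the counts of genes are over all tested regions, and none is given over all genes. Of 24 further Treg identity genes, 7 had regions that only rose in eTreg in the mean of both genotypes, 3 had regions that only fell, 6 had both and 8 had none called. Their 330 regions had 40 calls higher and 14 lower, and a median log2 fold of 0.04 against -0.01 over all regions. Of the 330, 16.4% were called, against 11.0% of all tested regions (6.14% higher, 4.84% lower). A region at Rgs1, a regulator of chemokine receptor signalling, had 20.9 ± 1.53 CPM in FntbKO eTreg against 12.7 ± 1.12 in FntbKO cTreg (SD, n = 2 each), and 25.8 ± 0.607 in WT eTreg against 11.7 ± 1.40 in WT cTreg (SD, n = 3 each). It rose by 0.92 (SE 0.13, edgeR adjusted p = 6.37e-05). At Tigit, an inhibitory receptor, regions rose by 1.35 (SE 0.21, adjusted p = 0.000299) and 1.63 (SE 0.26, adjusted p = 0.000306). Between the genotypes, FntbKO over WT, the list had 5 calls higher and 12 lower (5.15%, against 3.99% of all tested regions, 1.82% higher and 2.17% lower). At Nt5e, which encodes the ectoenzyme CD73, a region fell by -0.97 (edgeR adjusted p = 0.00263, SE 0.18). At the inhibitory receptor gene Ctla4 a weakly covered region fell by -1.35 (adjusted p = 0.008, SE 0.29). Its means were 4.07 CPM in FntbKO eTreg against 7.23 in WT eTreg, and 1.35 in FntbKO cTreg against 4.51 in WT cTreg cells. No other Ctla4 region was called in this comparison. At Plagl1 a region rose by 0.44 (adjusted p = 0.00385, SE 0.09).

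Of 26 genes that regulate Foxp3, 4 had regions that only rose in eTreg, 7 only fell, 7 had both and 8 had none, with 27 calls higher and 40 lower among 498 regions (13.5% called, against 11.0% of all tested regions, median -0.08). A region at Satb1, which encodes a chromatin organizer needed for Treg development, had 17.4 ± 0.289 CPM in FntbKO eTreg against 29.6 ± 3.33 in FntbKO cTreg (SD, n = 2 each), and 13.6 ± 1.25 in WT eTreg against 24.9 ± 2.82 in WT cTreg (SD, n = 3 each). It fell by -0.81 (SE 0.12, edgeR adjusted p = 0.000118). Of the genes of the calcium-responsive NFAT factors, Nfatc2 had a region that fell by -1.73 (adjusted p = 0.00018, SE 0.26) and Nfatc1 one that rose by 1.45 (adjusted p = 0.000352, SE 0.23). FntbKO over WT gave 2 calls higher and 5 lower (1.41%, against 3.99% of all tested regions). Runx1, whose product binds Foxp3 elements with CBFβ, had a region that fell by -1.26 (SE 0.22, adjusted p = 0.00104).

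Of 13 genes of TGF-β activation and signalling, the pathway that GARP serves, 3 had regions that only rose in eTreg, 3 only fell, 3 had both and 4 had none, with 8 calls higher and 23 lower among 166 regions (18.7% called, against 11.0% of all tested regions, median -0.12). At Itgav, the αV integrin chain, a region rose by 0.78 (edgeR adjusted p = 0.000139, SE 0.11), and at Furin, a protease that cuts the TGF-β precursor, one rose by 0.73 (adjusted p = 0.000398, SE 0.12). At the receptor gene Tgfbr2 a region fell by -1.15 (adjusted p = 0.00017, SE 0.17). FntbKO over WT gave 6 calls higher and 5 lower (6.63%, against 3.99% of all tested regions). A region at Tgfb1 itself had 34.9 ± 4.54 CPM in FntbKO eTreg against 21.9 ± 1.21 in WT eTreg, and 25.2 ± 4.51 in FntbKO cTreg against 15.7 ± 2.66 in WT cTreg cells (SD, n = 2 for FntbKO and 3 for WT). It rose by 0.68 (SE 0.12, adjusted p = 0.00108). Another region at Tgfbr2 fell by -0.83 (SE 0.16, adjusted p = 0.00269).

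Of 15 semaphorin, plexin and neuropilin partners of Nrp1, 3 had regions that only rose in eTreg, 1 only fell, 1 had both and 10 had none, with 8 calls higher and 3 lower among 115 regions (9.57% called, against 11.0% of all tested regions, median -0.0017). A region at Sema4d rose by 1.03 (SE 0.18, edgeR adjusted p = 0.000788). FntbKO over WT gave 0 calls higher and 2 lower (1.74%, against 3.99% of all tested regions). A region at Nrp2, the paralog of Nrp1, had 13.2 ± 1.71 CPM in FntbKO eTreg against 23.6 ± 2.18 in WT eTreg, and 10.9 ± 0.673 in FntbKO cTreg against 15.6 ± 1.41 in WT cTreg cells (SD, n = 2 for FntbKO and 3 for WT). It fell by -0.68 (SE 0.13, edgeR adjusted p = 0.00387).

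Regions at markers of other cells were summed beside these values. Conventional naive CD4 T cell markers (8 of 8 with a region), which like Gpr83 were lower in eTreg libraries, had 1401 to 1423 CPM in FntbKO eTreg against 1544 to 1651 in FntbKO cTreg, and 1175 to 1370 in WT eTreg against 1446 to 1522 in WT cTreg cells. Myeloid markers (5 of 8 with a region, none at Lyz2, Csf1r or Fcgr3) had 332.0 to 343.8 CPM in FntbKO eTreg against 272.3 to 296.0 in FntbKO cTreg, and 365.4 to 393.1 in WT eTreg against 300.0 to 358.3 in WT cTreg cells. B cell markers (5 of 8, none at Ms4a1 or Cd79b) had 71.4 to 117.5 CPM in FntbKO and 98.1 to 131.3 in WT libraries. Markers of CD8 T or NK cells (8 of 8) had 287.6 to 295.1 CPM in FntbKO eTreg against 319.7 to 340.1 in FntbKO cTreg cells. In WT these had 304.6 to 334.4 CPM in eTreg against 332.3 to 335.6 in cTreg cells. Plasmacytoid dendritic cell markers (7 of 8, none at Klk1) had 727.0 to 772.0 CPM in FntbKO eTreg against 677.7 to 700.3 in FntbKO cTreg cells. In WT these had 720.5 to 790.4 CPM in eTreg against 705.7 to 813.8 in cTreg cells. Endothelial markers (5 of 8, none at Tek, Tie1 or Emcn) had 194.5 to 226.6 CPM in FntbKO and 212.7 to 244.5 in WT libraries. The part of these cells in the results for Nrp1, Gpr83 and the other genes was not tested.

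By the Pearson correlation of log2 summed CPM over the 10 libraries, among 7963 genes, the genes most like each were as follows. Gpr83 was nearest to L3mbtl3 (r = 0.973) and Lsmem1 (0.972), and Capg to Fig4 (0.983) and Trib2 (0.978). Izumo1r was nearest to Stimate (r = 0.969) and Bbs12 (0.965), and Lrrc32 to Syde2 (0.965) and Scn3a (0.949). Nrp1 was nearest to Itpr2 (r = 0.956), and Foxp3 to Gm46319 (0.939) and Adam17 (0.904). These values describe the libraries at hand, which share their depth and the differences between groups. Each r was picked as among the highest of 7963 over only 10 libraries. Such a pick can be high for unrelated genes, and this was not tested.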

How the data were processed

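ATAC-seq libraries were grouped by their titles. The authors deposited raw read counts per region for 10 libraries, without normalization. Per the submitters' processing notes, the tools were bedtools, MACS2 2.1.1, SAMtools, Picard 2.9.4 and Trimmomatic 0.36, with mm10 and GRCm38; the aligner, any read shift and the merging of peaks are not given in the sources used here. Between 66.73% and 79.24% of counts per library were even, so halved counts were tried. Counting depth limits weak regions.

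Regions were assigned with the RefSeq GRCm38.p6 gene spans, printed as the table gives them. Counts were TMM-scaled and tested with edgeR 4.0.16 (R 4.3.3; glmQLFit, robust, filterByExpr), 1 mean per group, all 10 libraries, 6 residual degrees of freedom; averages weight groups equally. Alternatives were DESeq2 1.42.0, limma 3.58.1 (voom), total counts, filters, a replicate block, leave-one-out and other assignments. No pair of libraries looked like a repeat deposit (chi-square per region 2.43 to 3.53 within groups). The fit was first tested on simulated counts, with 50 regions changed at each fold, drawn from those above a minimum mean count. For FntbKO over WT in cTreg it recovered 52% at a fold of 0.5 and 62% at 2. For eTreg over cTreg in WT it recovered 64% and 70%. At folds of 0.25 and 4 these were 90% and 100%, and 98% and 100%. Many changes by a fold of 2 were thus missed.

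The members and lists were chosen with earlier results of these data known. Named are the region at each start or promoter, each called region, and the smallest p per gene and comparison; for lists, up to 3 regions by p. A few genes that these rules name are not reported here.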

Additional observations from a re-analysis of the deposited data

How the results depend on the processing

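No call of a region or gene reversed its direction under any alternative run. The number of regions called over the whole table also shifted between these runs. Of 602 refits of the 33 called fold changes, 438 kept their side of the threshold and 164 did not, most of them with a library left out. Leaving out single libraries, the number of called regions of the 88 ran from 2 to 5 for the subsets in WT, 0 to 4 in FntbKO and 3 to 16 in their mean. For the genotypes it ran from 0 to 2 in cTreg, 0 to 0 in eTreg and 1 to 9 in their mean, and it stayed at 0 to 0 for the interaction. The number of called genes on sums ran from 0 to 2 for the subsets in WT, 0 to 1 in FntbKO and 2 to 2 in their mean, and from 0 to 2, 0 to 0 and 0 to 4 for the genotypes in cTreg, eTreg and their mean, with 0 to 0 for the interaction.

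Without WT cTreg 2 and FntbKO cTreg 1 together, the called regions were 0 (subsets in FntbKO), 7 (their mean), 0 (genotypes in cTreg) and 1 (their mean), and the called genes were 0 for the subsets in FntbKO and 0 for the mean of the genotypes. This leaves 1 FntbKO cTreg library, assumed to vary like the other groups. In these comparisons fewer regions were then called over the whole table as well. The subsets in FntbKO gave 3 called regions with limma-voom and 3 with halved counts, and their mean 8 with a minimum count of 50. Over the whole table the subsets in FntbKO gave 1144 with limma-voom and 1741 with halved counts, against 1032 in the main fit. The mean of the subsets gave 6153 with a minimum count of 50, against 8369. Limited to the spans, 7 regions were called for the mean of the subsets and 3 for the mean of the genotypes; on sums, 2 genes between subsets in FntbKO and 1 between genotypes in cTreg. Within 10 kb, 1 gene was called for the subsets in WT and 1 for the genotypes in cTreg. The mean of the genotypes gave 1 gene with total counts and 4 with DESeq2. The cause of these shifts was not tested.

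With the replicate number as a block, 7 regions were called for the subsets in WT, 5 in FntbKO cells, and 3 between genotypes in cTreg, and on sums 1 gene between genotypes in cTreg and 4 in their mean. Over the whole table the block gave 4150 called regions for the subsets in WT, 2476 in FntbKO and 990 between genotypes in cTreg. Without the block these were 2623, 1032 and 433. Whether the numbers pair the libraries was not settled, and the main fit did not pair them. Deviations of same-numbered WT cTreg and WT eTreg libraries correlated at 0.201, 0.099 and 0.04, and those of FntbKO cTreg and FntbKO eTreg libraries at 0.221. Differently numbered cTreg and eTreg libraries ran from -0.159 to 0.056 in WT and had -0.221 in FntbKO. Deviations cancel within a group, so these values depend on each other. Same-numbered cTreg libraries of FntbKO and WT correlated at 0.129 and 0.161, and the eTreg ones at 0.049 and -0.015. WT eTreg 3 correlated more with WT cTreg 2 (0.056) than with its own number. Counting depth limits the regions at a few CPM.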
